A study of Caenorhabditis elegans with 16 samples.

Results

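The 6 *C. elegans* genes named as carnitine palmitoyltransferases, *cpt-1* to *cpt-6*, were followed through a poly-A RNA-seq experiment on cold exposure. They were chosen by gene name, with each symbol matched to its WormBase gene identifier, and all 6 were among the 20447 genes of the count table. RNA came from whole worms, about 1000 per library collected at adult day 1, in 4 strains. The double mutant *pqm-1; ets-4* carried the alleles *ok485* and *rrr16*, the double mutant *daf-16; ets-4* carried *mu86* and *rrr16*, the single mutant *ets-4* carried *rrr16*, and the control strain was wild type N2 (wt), so the 3 mutant strains shared 1 *ets-4* allele. Each strain gave 2 libraries of cold-exposed animals, which had grown at 20 °C, spent 2 h at 10 °C and then 24 h at 4 °C, and 2 libraries of animals left at 20 °C. The libraries of one group are named biological replicates by the study. Because the cold-exposed animals had also passed through the 10 °C step and an additional day, these cannot be told apart from the 4 °C exposure itself.

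Long-chain fatty acids are burnt inside mitochondria, but their CoA esters do not cross the inner membrane. A carnitine palmitoyltransferase of the outer membrane (CPT1 in mammals) moves the acyl group onto carnitine, a carrier (DIF-1 in worms) exchanges the acylcarnitine across the inner membrane, and a second enzyme (CPT2) moves the acyl group back onto CoA for β-oxidation. In mammals the first step is inhibited by malonyl-CoA and is regarded as the point at which entry of fatty acids is controlled. In *C. elegans*, *cpt-1* encodes a CPT1-like and *cpt-2* a CPT2-like enzyme, while *cpt-3*, *cpt-4*, *cpt-5* and *cpt-6* encode additional predicted carnitine acyltransferases whose individual roles are less well described. Transcription of *cpt-5* is known to depend on NHR-49, a nuclear receptor that directs the worm's fatty acid catabolism, as is that of the acyl-CoA synthetase gene *acs-2*.

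In WBcel235 coordinates of Ensembl release 115, *cpt-1* (WBGene00012907) lay on chromosome II from 12788244 to 12796452 on the minus strand. The gene *cpt-2* (WBGene00011122) lay on chromosome IV from 11179645 to 11183008 on the plus strand, and *cpt-3* (WBGene00021703) on chromosome III from 2082819 to 2088314 on the plus strand. The others were on chromosome V, with *cpt-4* (WBGene00019644) from 5023706 to 5027723 on the minus strand, *cpt-6* (WBGene00020911) from 6490086 to 6493921 on the minus strand and *cpt-5* (WBGene00008629) from 13873195 to 13875888 on the plus strand. All 6 are annotated as protein coding, and their merged exons span 2133 bases (*cpt-2*) to 2804 bases (*cpt-1*). The only annotated exon that overlaps theirs is a 21-base piRNA on the opposite strand of *cpt-6*.

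The 8 libraries at 4 °C held 36049588 to 43039567 counts each and the 8 at 20 °C held 32046029 to 48770269. The mutated genes were read first as a check of the labels, in counts scaled to library size (CPM, with TMM factors). The counts cover whole genes, so transcripts that carry a deletion are still counted outside it. At 4 °C, *ets-4* had 4.35 to 12.8 CPM in the 6 mutant libraries, against 60.3 and 84.5 CPM in wt. At 20 °C it had 76.9 to 201.9 CPM in the 6 libraries labelled as mutants, against 26.3 and 25.9 CPM in wt. The *ets-4* transcript therefore followed the labels at 4 °C and went the other way at 20 °C, and the 20 °C mutant libraries are called by their labels below. The *daf-16* transcript was lower in both *daf-16; ets-4* libraries than in both *ets-4* libraries at 4 °C, with 104.2 and 116.0 against 246.9 and 226.2 CPM, whereas at 20 °C the libraries labelled *daf-16; ets-4* had 106.9 and 174.6 CPM, against 163.4 and 184.6 CPM in those labelled *ets-4*, so that the groups overlapped. For *pqm-1*, both libraries of *pqm-1; ets-4* were below both of *ets-4* at each temperature. All 6 intestinal, all 3 body wall muscle, all 3 neuronal and all 4 oocyte markers reached 1 CPM in every library. Other tissues were less complete: the lowest numbers in a library were 0 of 8 sperm, 1 of 3 epidermal and 2 of 5 embryonic markers.

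A pair of the genes, *cpt-1* and *cpt-2*, accounted for most of the family's reads. Corrected for exon length (CPM per kilobase), *cpt-1* had a median of 94.5 over the 8 libraries at 4 °C and 77.2 over the 8 at 20 °C, and *cpt-2* had 88.2 at 4 °C and 83.1 at 20 °C. The CPT1-like and CPT2-like transcripts were thus present at similar levels per length. At 4 °C, *cpt-1* made up 47.0% to 50.9% of the length-corrected sum of the 6 genes and *cpt-2* made up 44.1% to 48.0%. The others shared what was left, with a median CPM per kilobase at 4 °C of 4.11 for *cpt-4*, 3.06 for *cpt-6*, 0.223 for *cpt-5* and 0.0753 for *cpt-3*. At 20 °C the order among these differed, with 11.4 for *cpt-5*, 8.59 for *cpt-6*, 3.63 for *cpt-4* and 0.157 for *cpt-3*. The length-corrected sum of the family had overlapping ranges, 176.3 to 196.1 at 4 °C and 161.0 to 205.6 at 20 °C.

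**Figure D1:**
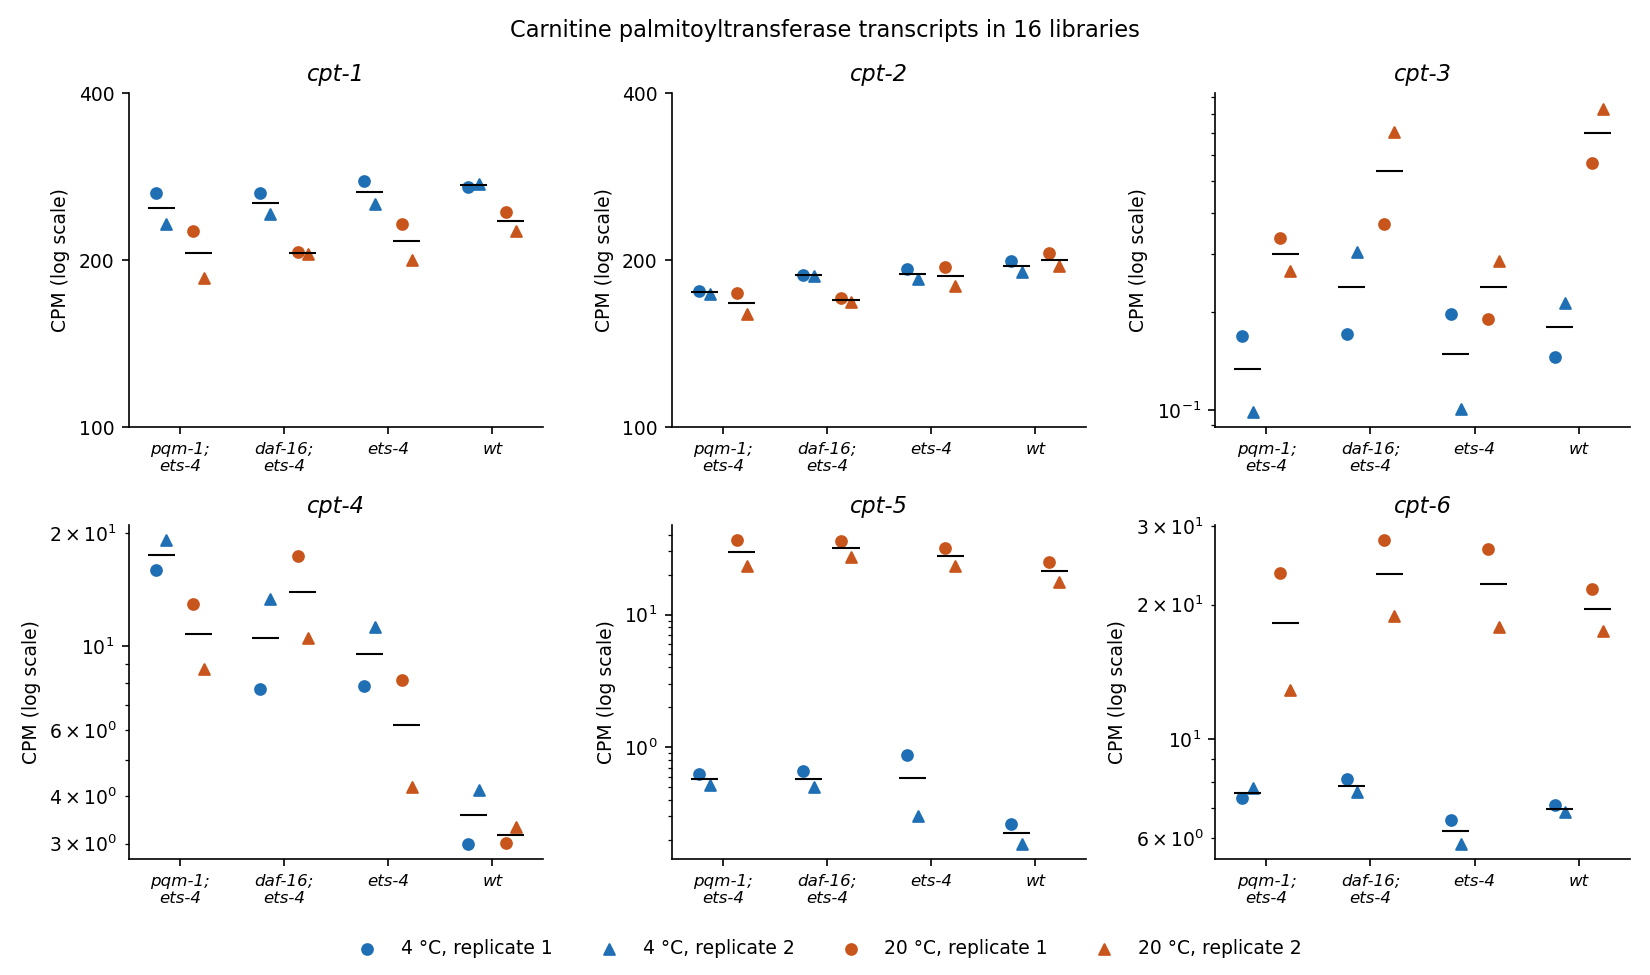
CPM of each *cpt* gene (y axis, log scale, a separate range per gene) in the 16 libraries, by strain (x axis) with 4 °C left of 20 °C; circles are replicate 1, triangles replicate 2 and bars the mean of 2. The 8 libraries at 4 °C lie far below the 8 at 20 °C for *cpt-5* (0.186 to 0.870 against 17.5 to 36.3 CPM) and below them for *cpt-6* (5.82 to 8.12 against 12.9 to 27.9 CPM), while for *cpt-4* the 4 wt libraries are the lowest.

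The cold exposure separated the family into genes that fell and genes that changed little. *cpt-5* fell 48.2-fold to 93.1-fold in every strain, *cpt-6* fell 2.32-fold to 3.53-fold in every strain, *cpt-1* rose by 1.16-fold to 1.23-fold in every strain, and *cpt-4* passed the test in none. The test was edgeR's quasi-likelihood test with replicate number as a block, and a gene was called at an adjusted p under 0.05 (Benjamini-Hochberg over the 15775 genes tested). Of the 6 members, 3 were called in *pqm-1; ets-4* (1 higher and 2 lower, with 51.7% of all genes tested called), 4 in *daf-16; ets-4* (2 higher and 2 lower, 54.3%), 3 in *ets-4* (1 higher and 2 lower, 44.4%) and 4 in wt (1 higher and 3 lower, 41.6%). The number of members called was thus not far from the share called among all genes, and what set them apart from one another was the size of the change.

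The gene *cpt-5* was nearly silent in the cold. Its CPM were 0.624 and 0.518 at 4 °C against 36.3 and 23.3 at 20 °C in *pqm-1; ets-4*, and 0.655 and 0.499 against 35.9 and 27.1 in *daf-16; ets-4*. In *ets-4* they were 0.870 and 0.304 at 4 °C against 31.97 and 23.2 at 20 °C, and in wt 0.262 and 0.186 against 24.8 and 17.5. The 4 °C level was thus 0.0106 to 0.0272 of the 20 °C level of the same strain and replicate. In reads, this was 7 to 31 per library at 4 °C against 695 to 1622 at 20 °C, so the 4 °C levels rest on few counts. The log2 fold change of 4 °C against 20 °C was -5.68 in *pqm-1; ets-4* (approximate standard error 0.19, adjusted p = 1.56e-09), -5.77 in *daf-16; ets-4* (0.20, 1.82e-09), -5.59 in *ets-4* (0.19, 2e-09) and -6.54 in wt (0.22, 2.03e-09). Leaving out any one library of the strain kept these values between -6.58 and -5.20, and the wt value was -6.57 when the 6 libraries at 20 °C labelled as mutants were not used. The same fit gave wt values of -1.52 for *cpt-6*, -1.97 for *cpt-3* and 0.18 for *cpt-1*, and these 4 genes were again the ones called. It used the same wt libraries, so it is not fresh support, and *cpt-3* entered it only through wt at 20 °C. The share of *cpt-5* in the length-corrected family sum was 0.0426% to 0.195% at 4 °C and 4.07% to 8.34% at 20 °C.

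The gene *cpt-6* followed the same direction on a smaller scale. It had 7.37 and 7.77 CPM at 4 °C against 23.6 and 12.9 CPM at 20 °C in *pqm-1; ets-4*, and 8.12 and 7.59 against 27.9 and 18.9 CPM in *daf-16; ets-4*. In *ets-4* it had 6.597 and 5.819 CPM at 4 °C against 26.7 and 17.8 CPM at 20 °C, and in wt 7.09 and 6.84 against 21.7 and 17.4 CPM. The 8 libraries at 4 °C did not overlap the 8 at 20 °C, and the replicates were closer to each other in the cold than at 20 °C. The log2 fold changes were -1.22 in *pqm-1; ets-4* (adjusted p = 0.000322), -1.55 in *daf-16; ets-4* (5.29e-05), -1.82 in *ets-4* (1.92e-05) and -1.48 in wt (1e-04), with approximate standard errors near 0.20 in each. The lowest of the family, *cpt-3*, passed the test in wt alone, where it had 5 and 8 reads (0.145 and 0.213 CPM) at 4 °C against 23 and 33 reads (0.566 and 0.831 CPM) at 20 °C. Among the 4 °C libraries it was below the expression filter, and it entered the temperature test through those at 20 °C. Had it been as scarce at 20 °C it would not have been tested, so its admission favoured a fall. Its log2 fold change in wt was -1.94 (0.50, adjusted p = 0.00781), and the call was lost without wt 20 °C replicate 2 (-1.74, adjusted p = 0.0601) or without wt 4 °C replicate 1 (-1.81, adjusted p = 0.0564). In the mutants its values were -1.15 in *pqm-1; ets-4*, -1.18 in *daf-16; ets-4* and -0.67 in *ets-4* (adjusted p = 0.0965, 0.0571 and 0.376 in that order).

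The 2 abundant members changed by small amounts. *cpt-1* had 264.9 and 232.5 CPM at 4 °C against 225.8 and 186.3 CPM at 20 °C in *pqm-1; ets-4*, and 264.9 and 242.3 against 206.9 and 205.7 CPM in *daf-16; ets-4*. In *ets-4* it had 277.7 and 253.3 CPM at 4 °C against 232.8 and 200.6 CPM at 20 °C, and in wt 271.8 and 274.6 against 245.0 and 226.1 CPM. Within each strain both cold libraries exceeded both libraries at 20 °C, and the rise was 0.27 on the log2 scale in *pqm-1; ets-4* (adjusted p = 0.00711), 0.30 in *daf-16; ets-4* (0.00448), 0.30 in *ets-4* (0.0051) and 0.22 in wt (0.0288). These calls were not firm: without the replicate block the adjusted p lay between 0.0538 and 0.177 in the 4 strains. They were also lost in *pqm-1; ets-4* without its 20 °C replicate 2 (0.19, adjusted p = 0.0832) or its 4 °C replicate 1 (0.17, 0.183), in *daf-16; ets-4* without its 20 °C replicate 1 (0.24, 0.0544), in *ets-4* without its 20 °C replicate 2 (0.27, 0.0672) or its 4 °C replicate 1 (0.29, 0.0527), and in wt without either 20 °C replicate (0.19 and 0.24, adjusted p = 0.185 and 0.096) or its 4 °C replicate 2 (0.12, 0.354).

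*cpt-2* differed still less between temperatures. Its 8 libraries at 4 °C ranged from 174.0 to 199.7 CPM, against 160.1 to 206.0 CPM at 20 °C, so the ranges overlapped. It passed the test only in *daf-16; ets-4*, with 188.3 and 187.8 CPM at 4 °C against 171.0 and 168.6 CPM at 20 °C (log2 fold change 0.15, adjusted p = 0.0322). That call was lost without any one of the 4 libraries concerned, namely *daf-16; ets-4* replicates 1 and 2 at either temperature (0.12 to 0.17, adjusted p = 0.0599 to 0.218), and without the replicate block (adjusted p = 0.119). In the other strains the log2 fold changes were 0.07 in *pqm-1; ets-4*, 0.02 in *ets-4* and -0.04 in wt, with none called.

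**Figure D2:**
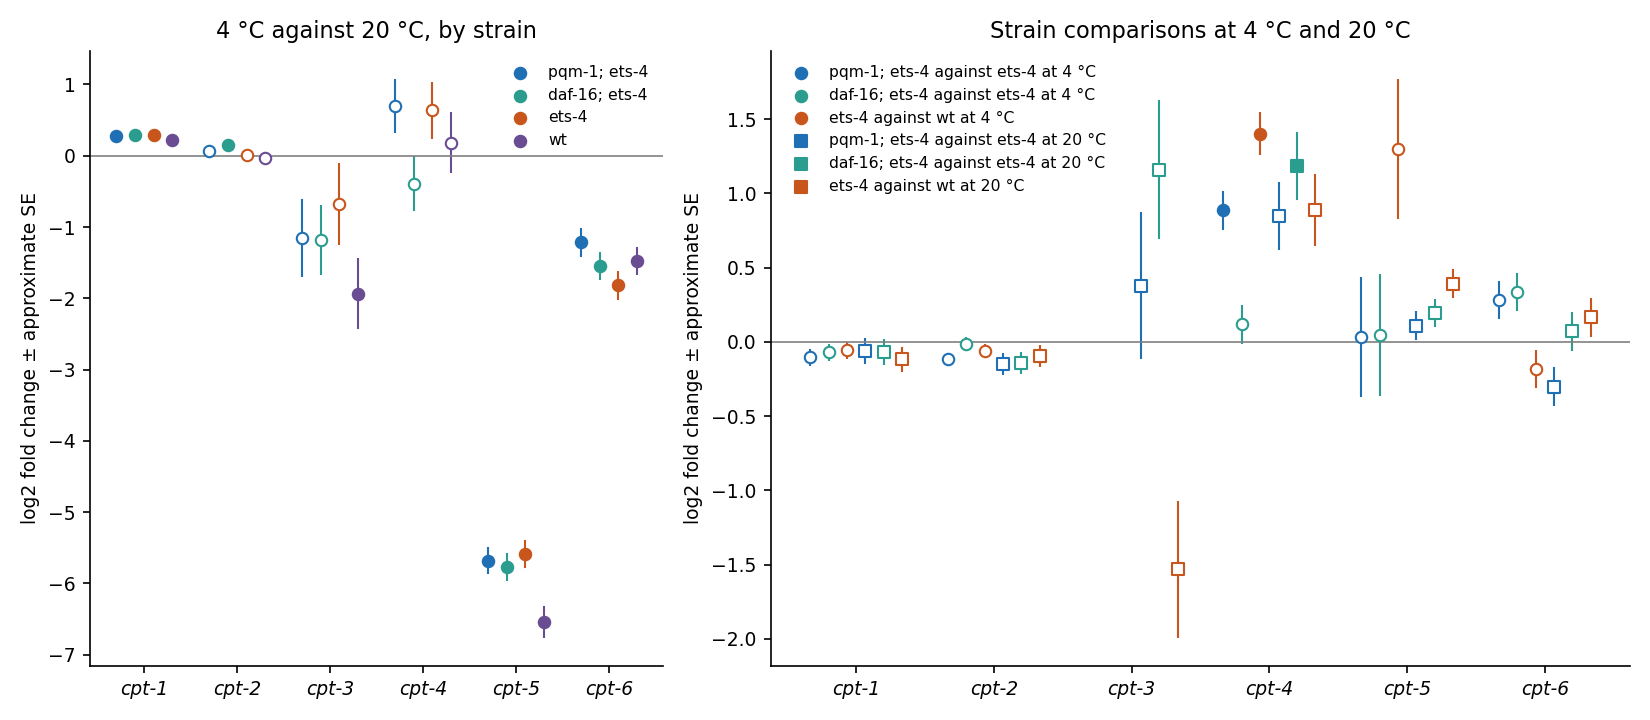
log2 fold change of each *cpt* gene with its approximate standard error (y axis), for 4 °C against 20 °C in each strain (left) and for the strain comparisons at each temperature (right); filled symbols passed an adjusted p of 0.05 and open symbols did not. *cpt-5* stands at -6.54 to -5.59 in the cold, and among the strain comparisons only *cpt-4* has filled symbols, at 1.40, 0.89 and 1.19.

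Other genes moved with temperature in the same libraries. The 6 intestinal markers fell in each of the 4 strains, with a median log2 fold change of -1.27 to -0.92, and their summed level was 24670 to 32400 CPM at 4 °C against 41120 to 54200 CPM at 20 °C. The 3 neuronal markers summed to 187.4 to 207.8 CPM at 4 °C against 143.6 to 181.7 CPM at 20 °C, with 1 or 2 of 3 called higher in each strain and 1 called lower in all but *ets-4*. Of the 5 embryonic markers, 4 were tested, and their median log2 fold change was -0.63 to -0.48, with 1 higher and 1 or 2 lower. Their sum, nearly all of it from *skn-1*, went the other way, 334.8 to 387.6 CPM at 4 °C against 210.2 to 277.3 CPM at 20 °C, and *med-1* had 0 reads in the 8 libraries at 4 °C. Of 8 sperm markers, 4 were called lower in *pqm-1; ets-4* (median -1.26), 7 in *daf-16; ets-4* (-1.89), 0 in *ets-4* (-0.13) and 0 in wt (-0.52). Epidermal markers summed to 467.4 to 1199 CPM at 4 °C against 819.3 to 1966 CPM at 20 °C, with 1 of 3 called lower in each strain. In whole-worm RNA, fewer cells of a type and less RNA per cell cannot be told apart, and the part of these tissues in the changes of *cpt-5*, *cpt-6* and *cpt-1* was not tested. The median log2 fold change of all genes tested lay between -0.04 and -0.02 in the 4 strains.

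The remaining steps of fatty acid entry and breakdown were examined through 4 lists. The carnitine list held the genes of carnitine supply and of the other carnitine acyltransferases (*gbh-1* and *gbh-2* for γ-butyrobetaine hydroxylase, the last enzyme of carnitine synthesis, the cation and carnitine transporter gene *oct-1*, the carrier gene *dif-1*, and *B0395.3* and *T20B3.1*, predicted acyltransferases). Of its 6 genes, 3 were lower at 4 °C and 0 higher in *pqm-1; ets-4*, 4 lower and 1 higher in *daf-16; ets-4*, 3 lower and 0 higher in *ets-4*, and 4 lower and 0 higher in wt. Among all genes tested, 25.8% were lower and 25.9% higher in *pqm-1; ets-4*, 28.5% and 25.8% in *daf-16; ets-4*, 23.1% and 21.3% in *ets-4*, and 22.6% and 19% (3004 genes of 15775) in wt. *gbh-2*, *oct-1* and *B0395.3* were the 3 that fell in every strain. *gbh-2* had 3.30 to 7.16 CPM in the 8 libraries at 4 °C against 9.60 to 22.5 CPM at 20 °C, with a log2 fold change of -2.05 in *pqm-1; ets-4*, -1.72 in *daf-16; ets-4*, -1.21 in *ets-4* and -1.28 in wt (adjusted p = 7.97e-05, 0.000266, 0.00313 and 0.00281). *oct-1* changed by -0.87 to -0.50 and *B0395.3* by -1.13 to -0.39 across the strains. The mitochondrial carrier gene *dif-1*, whose product stands between the 2 transferases, changed little, like *cpt-2*: its log2 fold change was -0.08 in *pqm-1; ets-4*, -0.16 in *daf-16; ets-4*, -0.14 in *ets-4* and -0.21 in wt, and it passed the test in *daf-16; ets-4* and wt (adjusted p = 0.0334 and 0.0117).

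Acyl-CoA synthetases, which make the substrate of the first transferase, and the enzymes of β-oxidation more often moved down than up. Of 21 *acs* genes tested, 11 were lower and 5 higher in *pqm-1; ets-4*, 13 and 4 in *daf-16; ets-4*, 9 and 5 in *ets-4*, and 9 and 4 in wt, with a median log2 fold change of -0.80 to -0.41, against 22.6% to 28.5% of all genes lower and 19% to 25.9% higher. *acs-2* had 3.66 to 8.61 CPM in the 8 libraries at 4 °C against 36.95 to 117.8 CPM at 20 °C, with no overlap. Its fall had a log2 fold change of -3.45 in *pqm-1; ets-4*, -3.31 in *daf-16; ets-4*, -4.17 in *ets-4* and -3.18 in wt (adjusted p = 8.41e-07, 1.18e-06, 3.25e-07 and 1.8e-06). The part of NHR-49 in the falls of *cpt-5* and *acs-2* was not tested. Of 38 β-oxidation genes, 22 were lower and 3 higher in *pqm-1; ets-4*, 25 and 2 in *daf-16; ets-4*, 21 and 2 in *ets-4*, and 23 and 3 in wt, with a median of -0.68 to -0.43. Among them, the acyl-CoA dehydrogenase gene *acdh-1* changed by -1.23 to -0.93 and the thiolase gene *kat-1* by -0.54 to -0.43, each called in the 4 strains. These are counts and medians of lists, with no test of the list itself.

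**Figure D3:**
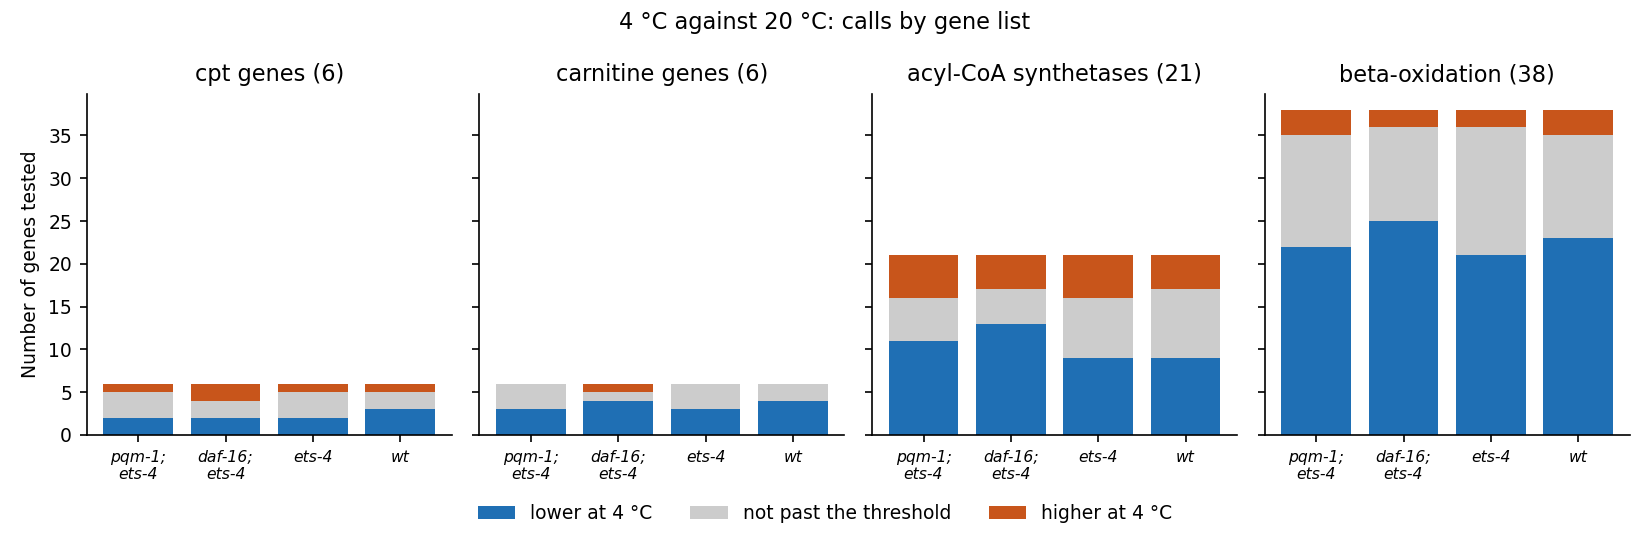
Number of genes tested (y axis) that were lower at 4 °C (blue), higher at 4 °C (orange) or not past an adjusted p of 0.05 (grey) in each strain (x axis), for the 6 *cpt* genes, the 6 carnitine genes, 21 acyl-CoA synthetase genes and 38 β-oxidation genes. In each strain more β-oxidation genes were lower (21 to 25) than higher (2 or 3).

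The genes that control this pathway included some that rose and some that fell. Among 11 regulators, which include the malonyl-CoA genes *pod-2* (acetyl-CoA carboxylase), *fasn-1* (fatty acid synthase) and *mlcd-1* (malonyl-CoA decarboxylase), 3 rose and 2 fell in *pqm-1; ets-4*, 3 and 3 in *daf-16; ets-4*, 4 and 3 in *ets-4*, and 4 and 3 in wt. Thus 5, 6, 7 and 7 of 11 were called, where the share of all genes called was 51.7%, 54.3%, 44.4% and 41.6% in the same order of strains, and nothing particular to the list is read from these counts. The *nhr-49* transcript passed the test only in wt, with 120.5 and 113.5 CPM at 4 °C against 138.7 and 132.0 CPM at 20 °C (log2 fold change -0.21, adjusted p = 0.0218), and its log2 fold change was -0.10 in *pqm-1; ets-4*, 0.02 in *daf-16; ets-4* and -0.10 in *ets-4*. *nhr-80*, whose product partners NHR-49, fell in the 4 strains with log2 fold changes of -2.56 to -2.29, and *fasn-1* with -1.03 to -0.70. *mdt-15*, a mediator subunit that works with NHR-49, rose by 0.59 to 0.87 and *aak-2*, a catalytic subunit of AMP-activated kinase, by 0.29 to 0.50.

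The strain comparisons asked which transcripts differed in *ets-4* in the cold, and which of these depended on *daf-16* or *pqm-1*. One member stood out: *cpt-4* rose 2.64-fold in *ets-4* against wt at 4 °C, and was 1.85-fold higher again in *pqm-1; ets-4* than in *ets-4*. It had 15.9 and 19.1 CPM in *pqm-1; ets-4*, 7.69 and 13.4 CPM in *daf-16; ets-4*, 7.86 and 11.2 CPM in *ets-4*, and 2.99 and 4.16 CPM in wt. Each mutant library was above both wt libraries, *pqm-1; ets-4* was above *ets-4* in both replicates without overlap, and *daf-16; ets-4* overlapped *ets-4*. In *ets-4* against wt, *cpt-4* was the only one of 5 members tested that passed (log2 fold change 1.40, approximate standard error 0.15, adjusted p = 0.00202), while 9.70% of the 14571 genes tested were called. In *pqm-1; ets-4* against *ets-4* it was again the only one, at 0.89 (0.13, adjusted p = 0.0103), with 5.90% of all genes called. In *daf-16; ets-4* against *ets-4* none of the 5 passed, with 3.86% of all genes called and 0.12 (0.13, adjusted p = 0.653) for *cpt-4*. The unadjusted p was under 0.05 for *cpt-6* (0.34, adjusted p = 0.168), but the share of all genes at that threshold was not counted. DESeq2 called 0 members, with 757 genes called in all.

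How firmly these calls stood differed. Leaving out any one of the 4 libraries kept the *ets-4* against wt value of *cpt-4* between 1.39 and 1.43 and its call. Without the replicate block the value was the same, 1.40, with an adjusted p of 0.247, and over all 16 libraries it was 1.42 with an adjusted p of 0.0969. The study had picked *cpt-4* from these same libraries by its own rule, together with reported binding of DAF-16 and PQM-1 at its promoter. Its call by that rule in *ets-4* against wt at 4 °C was thus fixed in advance and lends no support to the edgeR call. RNAi against *cpt-4* in the study gave no consistent change in survival of the cold. By the study's rule, a change of at least 2-fold in both replicates after 8 was added to scaled counts, *cpt-4* was called in *ets-4* against wt at 4 °C (log2 change 1.34 in replicate 1 and 1.45 in replicate 2), where 0.802% of all genes were. In *pqm-1; ets-4* against *ets-4* it was not (1.02 and 0.81, with 0.978% of all genes called). Its edgeR call there was lost without the block (adjusted p = 0.631) and over all 16 libraries (0.269). The call was also lost without *ets-4* replicate 1 (0.89) or replicate 2 (0.90). Those fits left 1 library in the *ets-4* group, so the loss is not read as particular to *cpt-4*. The value itself lay between 0.71 and 1.06 when one library was left out.

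The other members did not pass between strains at 4 °C. *cpt-5* had 0.870 and 0.304 CPM in *ets-4* (31 and 12 reads) and 0.262 and 0.186 CPM in wt (9 and 7 reads), a log2 fold change of 1.30 (0.47, adjusted p = 0.105), which passed at an adjusted p of 0.0465 when all 16 libraries were fitted together. It was 0.63 without *ets-4* replicate 1, the highest of the 4. Both wt libraries lay below the count cutoff of the expression filter, so *cpt-5* entered the 4 °C test through the mutant libraries. Its admission there favoured a rise against wt. *cpt-1* and *cpt-2* differed by -0.12 to -0.01 on the log2 scale in the 3 comparisons and *cpt-6* by -0.18 to 0.34. *cpt-3*, with 4 to 11 reads per library at 4 °C, was below the expression filter and was not tested there.

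At 20 °C, *cpt-4* again showed the widest spread between strains. It had 12.9 and 8.72 CPM in the libraries labelled *pqm-1; ets-4*, 17.3 and 10.5 CPM in the *daf-16; ets-4* ones, against 8.14 and 4.25 CPM in the *ets-4* ones, and 3.003 and 3.325 CPM in wt. The 4 wt libraries of both temperatures were thus the 4 lowest of the 16. Against wt, the libraries labelled *ets-4* differed by 0.89 (0.24, adjusted p = 0.139), and none of the 6 members passed where 1.29% of the 15405 genes tested did. The unadjusted p was under 0.05 for *cpt-3* (-1.53), *cpt-4* and *cpt-5* (0.39), but the share of all genes at that threshold was not counted. DESeq2 called 0 members, with 400 genes called in all. The libraries labelled *daf-16; ets-4* exceeded those labelled *ets-4* by 1.19 (0.23, adjusted p = 0.0327), the only one of 6 members called, with 4.34% of all genes called. The 2-fold rule also called it there (1.11 and 1.26), among 4.84% of all genes. The edgeR call was lost without the block (adjusted p = 0.467) and over all 16 libraries (0.0896). It was also lost without *ets-4* replicate 1 (1.46), *ets-4* replicate 2 (0.95) or *daf-16; ets-4* replicate 1 (1.02). Each of those fits left 1 library in a group, so the loss is not read as particular to *cpt-4*. In the libraries labelled *pqm-1; ets-4* against *ets-4*, 0 of 6 members passed where 9.33% of all genes did. The unadjusted p was under 0.05 for *cpt-6* and *cpt-4*, again with no share of all genes counted. *cpt-4* differed by 0.85 (0.23, adjusted p = 0.0548). Without a filter and by DESeq2 its adjusted p was 0.0377 and 0.0237. Leaving out *pqm-1; ets-4* replicate 1 gave a call for *cpt-6* (-0.56, adjusted p = 0.0329), which had stood at -0.30 (0.163).

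Markers of body wall muscle, like *cpt-4*, were higher in the mutant libraries than in wt, but among the mutants the 2 did not always move together. The summed level of *unc-54*, *myo-3* and *unc-15*, all 3 of which had reads in every library, was 2732 and 3254 CPM in *pqm-1; ets-4*, 2796 and 3005 CPM in *daf-16; ets-4*, 2315 and 2869 CPM in *ets-4*, and 1720 and 2077 CPM in wt at 4 °C. All 3 rose in *ets-4* against wt, with a median log2 fold change of 0.44, whereas 0 of 3 passed in *pqm-1; ets-4* against *ets-4* at 4 °C (median 0.15) and 0 of 3 in *daf-16; ets-4* against *ets-4* at 20 °C (median 0.35). At 20 °C the sums were 3454 and 4343 CPM in the libraries labelled *pqm-1; ets-4*, 2911 and 3886 CPM in the *daf-16; ets-4* ones, 2605 and 2550 CPM in those labelled *ets-4*, and 1844 and 1927 CPM in wt. There *cpt-4* went the other way between replicates of both double mutants, with 12.9 and 8.72 CPM in *pqm-1; ets-4* and 17.3 and 10.5 CPM in *daf-16; ets-4*. In wt and *ets-4* at 20 °C the muscle sum and *cpt-4* moved in the same direction between replicates. At 4 °C both rose from replicate 1 to replicate 2 in every strain. The muscle genes *csq-1* and *pat-10* were among the genes most like *cpt-4*, as given below. The epidermal markers *col-19*, *rol-6* and *dpy-7*, with *col-19* nearly the whole of the sum, had 997.4 and 1178 CPM in *pqm-1; ets-4*, 990.5 and 1199 CPM in *daf-16; ets-4*, 614.5 and 913.3 CPM in *ets-4*, and 467.4 and 657.1 CPM in wt at 4 °C. At 20 °C the epidermal sums were 1678 and 1884 CPM in the libraries labelled *pqm-1; ets-4*, 1966 and 1935 CPM in the *daf-16; ets-4* ones, 1123 and 1238 CPM in the *ets-4* ones, and 819.3 and 1011 CPM in wt. Beside a log2 change of 1.40 for *cpt-4* in *ets-4* against wt at 4 °C, the median was 0.44 for muscle, 0.42 for epidermis (1 of 3 called) and 1.17 for 8 sperm markers (0 of 8 called). In *pqm-1; ets-4* against *ets-4* at 4 °C, beside 0.89 for *cpt-4*, the epidermal median was 0.97 (1 of 3 called) and the sperm median 1.45 (4 of 8). In *daf-16; ets-4* against *ets-4* at 20 °C, beside 1.19 for *cpt-4*, they were 0.73 (1 of 3) and 2.78 (3 of 8). In *pqm-1; ets-4* against *ets-4* at 20 °C, beside 0.85 for *cpt-4*, 2 of 3 muscle markers were called higher (median 0.49). Oocyte markers went the other way: the 4 of them summed to 2608 and 2360 CPM in *pqm-1; ets-4*, 2765 and 2501 CPM in *daf-16; ets-4*, 2981 and 2635 CPM in *ets-4*, and 3284 and 3300 CPM in wt at 4 °C, with 1 of 4 called lower in *pqm-1; ets-4* against *ets-4* (median -0.20) and 2 of 4 in *ets-4* against wt (-0.23). The sperm markers had summed levels of 2.56 to 75.2 CPM at 4 °C and 3.50 to 159.3 CPM at 20 °C. The part of these tissues in the *cpt-4* results was not tested.

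**Figure D4:**
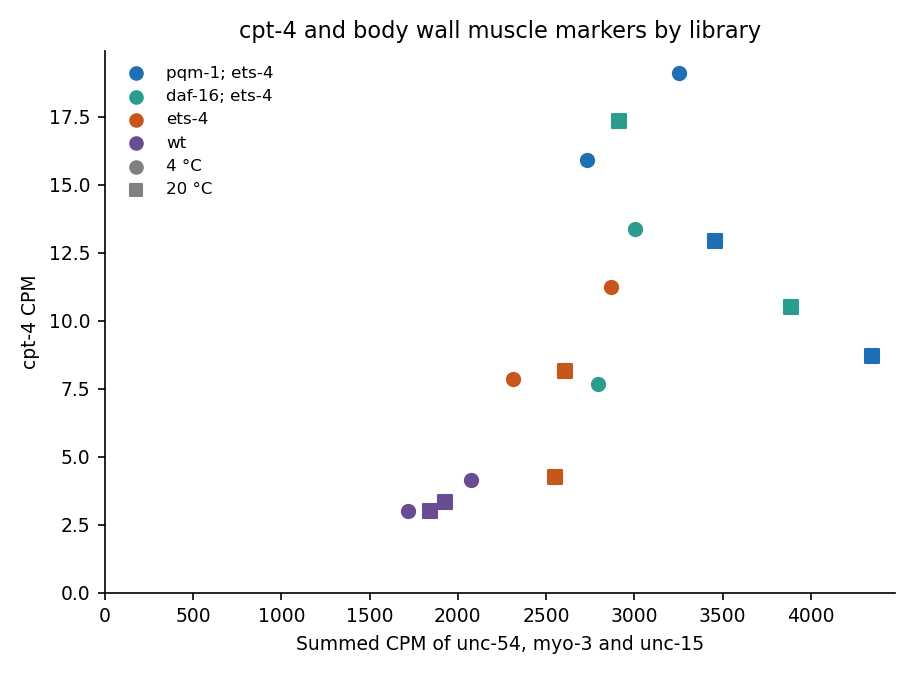
CPM of *cpt-4* (y axis) against the summed CPM of the body wall muscle markers *unc-54*, *myo-3* and *unc-15* (x axis), 1 point per library, coloured by strain, with circles for 4 °C and squares for 20 °C. The 4 wt libraries have the lowest *cpt-4* (2.99 to 4.16 CPM) and muscle sums of 1720 to 2077 CPM, while replicate 2 labelled *pqm-1; ets-4* at 20 °C has the highest muscle sum, 4343 CPM, at 8.72 CPM of *cpt-4*.

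Whether the strains answered the cold differently was tested as the difference between their cold responses, in the fit of all 16 libraries. None of the 6 members passed in any of the 3 differences, where the test called 0.00% of the 15775 genes for *pqm-1; ets-4* minus *ets-4*, 0.0380% for *daf-16; ets-4* minus *ets-4* and 0.00634% for *ets-4* minus wt. The 1 gene called for *ets-4* minus wt was *ets-4* itself (-5.565, adjusted p = 0.00894). Its transcript had gone against the labels at 20 °C, and these differences take those libraries by their labels. The fall of *cpt-5* was 0.95 smaller on the log2 scale in *ets-4* than in wt (0.35, unadjusted p = 0.0196, adjusted p = 1), the only member below 0.05 unadjusted in the 3 differences, and DESeq2 called 0 in each. The share of all genes below 0.05 unadjusted was not counted, and DESeq2 called 9 genes in all for *ets-4* minus wt. The *cpt-5* difference was 0.29 without *ets-4* 4 °C replicate 1, and 0.89 to 1.34 without any other one library. For *cpt-4* the difference was 0.06 (0.55) for *pqm-1; ets-4* minus *ets-4*, -1.03 (0.55, adjusted p = 0.74) for *daf-16; ets-4* minus *ets-4* and 0.46 (0.59) for *ets-4* minus wt. With one library left out, these ranged from -0.55 to 0.46, from -1.64 to -0.57 and from 0.01 to 1.03 in the same order, with the ends set by *ets-4* 20 °C replicates 1 and 2 and, for -0.57, *daf-16; ets-4* 20 °C replicate 1. The replicates of *cpt-4* went apart here: its ratio of 4 °C to 20 °C was 0.444 in replicate 1 and 1.27 in replicate 2 of *daf-16; ets-4*, and 0.965 and 2.64 in *ets-4*. This fit shares 1 replicate effect between the temperatures, and with standard errors of this size it could not detect a 2-fold difference for *cpt-4*. With a separate block in each temperature, the edgeR value of *cpt-4* for *daf-16; ets-4* minus *ets-4* was -1.06 (adjusted p = 0.384), again not called.

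Ordered by mean level, the 8 groups fell into different sequences for different members. For *cpt-5* and *cpt-6* the 4 groups at 20 °C came before the 4 at 4 °C, and within 20 °C neighbouring groups overlapped. For *cpt-1* the 4 groups at 4 °C came first, with overlap between all neighbours. For *cpt-4* the order was *pqm-1; ets-4* at 4 °C (mean 17.5 CPM), *daf-16; ets-4* at 20 °C (13.9), *pqm-1; ets-4* at 20 °C (10.8), *daf-16; ets-4* at 4 °C (10.5), *ets-4* at 4 °C (9.55), *ets-4* at 20 °C (6.20), wt at 4 °C (3.58) and wt at 20 °C (3.16). Only the step between *ets-4* at 20 °C and wt at 4 °C was free of overlap. For *cpt-2* wt held the highest 2 means, 195.4 CPM at 4 °C and 200.7 CPM at 20 °C, both within overlap of their neighbours.

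The genes most like each member across the 16 libraries were found by Pearson correlation of log2 CPM among 11422 genes, as a description: the libraries share temperature, strain and replicate number, so they are not independent points. *cpt-5* and *cpt-6* were most alike within the family (r = 0.955), and *cpt-1* ran opposite to *cpt-5* (r = -0.779). For *cpt-5* the 3 nearest were *W04A4.2*, *smd-1*, which encodes S-adenosylmethionine decarboxylase of polyamine synthesis, and *glna-2*, a glutaminase gene, each at r = 0.993. The medians of *smd-1* were 4.58 CPM at 4 °C and 137.2 CPM at 20 °C. For *cpt-6* they were *ech-5*, of the enoyl-CoA hydratase family (0.980), *T07D3.9* (0.976) and *ugt-5*, of the UDP-glucuronosyltransferase family (0.971). For *cpt-4* they were *hpo-32* (0.925), *csq-1*, which encodes the calcium-binding protein calsequestrin of muscle (0.912), and *pat-10*, body wall muscle troponin C (0.909). For *cpt-1* they were *nos-3*, a Nanos-related RNA regulator of the germ line (0.982), *prp-19*, a splicing factor gene (0.981), and *herc-1* (0.980). For *cpt-2* they were *fbxa-83* (0.949), *unc-37*, a Groucho-type corepressor gene (0.943), and *parp-1*, poly(ADP-ribose) polymerase (0.942), and for the scarce *cpt-3* they were *gba-4* (0.846), *Y7A9D.1* (0.824) and *tbx-11* (0.818).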

How the data were processed

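Poly-A RNA of whole worms was sequenced from 16 libraries. The authors mapped reads to WBcel235 with STAR, kept reads that mapped once, counted those over exons of protein-coding genes with summarizeOverlaps, and deposited counts per gene without normalization. The annotation release and the strand setting of the counting are not given in the sources used here. Strain, temperature and replicate number were taken from the sample labels, and coordinates from Ensembl release 115, in which 20159 of 20447 genes (98.6%) were found.

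Counts were tested with edgeR 4.0.16 in R 4.3.3 (quasi-likelihood, robust, TMM scaling, filterByExpr), with replicate number as a block because the study compared replicates of equal number, and Benjamini-Hochberg adjustment over all genes tested with a threshold of 0.05. Strain comparisons used the 8 libraries of a temperature. Temperature comparisons used all 16. The numbers paired the libraries: over 15775 genes the replicate differences of 2 groups correlated at 0.456 to 0.657 within 4 °C, 0.329 to 0.58 within 20 °C and 0.225 to 0.712 between temperatures. Approximate standard errors were taken as the size of a log2 fold change over the root of its F statistic. Levels are CPM, and tables and figures were made in Python 3.11.15. The tests were tried on simulated counts first.

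All 6 members are named, with 3 genes most like each (prior count 2, median CPM of at least 1), the mutated genes, the carnitine and regulator lists, *acs-2*, *kat-1* and *acdh-1*. Members and lists were chosen with earlier results of these data known, and the study had itself picked *cpt-4* from these libraries, so its change in *ets-4* is not independent evidence. Alternatives were no block, RLE size factors, no filter, DESeq2 1.42.0, all 16 libraries, the study's 2-fold rule (pseudocount 8) and leaving out each library. A block within each temperature and a wt cold response without the mutant libraries at 20 °C were added after the data were seen. Depth limits precision for genes with few reads, and no sequences were used here.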

Additional observations from a re-analysis of the deposited data

Results flagged for a closer look

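The direction of *cpt-2* with temperature was opposite between each double mutant and wt in both replicates. Its ratio of 4 °C to 20 °C was 1.101 and 1.114 in *daf-16; ets-4* and 1.01 and 1.086 in *pqm-1; ets-4*, against 0.9697 and 0.9778 in wt. In *ets-4* the replicates disagreed, at 0.9901 and 1.031. The difference of either double mutant from wt was not tested. The change of *cpt-2* itself passed edgeR's test only in *daf-16; ets-4*. In wt and *pqm-1; ets-4* its log2 fold changes were -0.038 and 0.067, each with an approximate standard error of 0.052, so neither was distinguished from no change.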

How the results depend on the processing

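The falls of *cpt-5* and *cpt-6* in the cold kept their direction and call in all 4 strains under every alternative tried. Without the replicate block, 0 of the 6 *cpt* genes were called in *ets-4* against wt at 4 °C, 0 in *pqm-1; ets-4* against *ets-4* at 4 °C, 0 in *daf-16; ets-4* against *ets-4* at 20 °C and 2 in the cold response of *daf-16; ets-4*, against 1, 1, 1 and 4 with it, and over all genes the strain comparisons named here gave 0, 7 and 4 calls without it. With all 16 libraries in one fit, 0 were called in *pqm-1; ets-4* against *ets-4* at 4 °C and 0 in *daf-16; ets-4* against *ets-4* at 20 °C, and the 2-fold rule called 0 in the first of these. Without a filter and by DESeq2, 1 was called in *pqm-1; ets-4* against *ets-4* at 20 °C. Leaving out one library gave 0 to 1 calls in *pqm-1; ets-4* against *ets-4* at either temperature and in *daf-16; ets-4* against *ets-4* at 20 °C, and 2 to 3 in each of the 4 cold responses. For *cpt-4* it gave log2 fold changes of -0.087 to 0.305 in *daf-16; ets-4* against *ets-4* at 4 °C, -0.13 to 0.43 for the cold response of wt, -0.90 to 0.053 for that of *daf-16; ets-4*, and -0.55 to 0.46 for the difference of the cold responses of *pqm-1; ets-4* and *ets-4*, so these directions are not settled. The cause of these shifts was not tested. A fit without 1 library left 1 in its group, so a call lost there is not read as particular to a member. Blocking within each temperature called 0 members in the 3 differences, as before, and the wt cold response without the mutant libraries at 20 °C again called 4. RLE size factors changed no call of a member. With 4 to 36 reads per library, *cpt-3* is limited by depth at both temperatures.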
